A study of Drosophila melanogaster with 51 samples.

Results

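The genes tara, tna, chn, spen and bowl encode nuclear regulatory proteins and lie in the euchromatic chromosome arms of Drosophila melanogaster. They are 5 of 13631 protein-coding arm genes, and 5 of 17807 genes in the gene table. They were chosen by the deposited peak lists themselves, for HP1 peaks along the gene body with no H3K9me3 peak within 50 kb. Number, width and fold enrichment of their HP1 peaks, and their distance from H3K9me3, are therefore given as a description, without a test. All 5 names matched 1 gene each, and all 5 hold at least 2 HP1 peaks.

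HP1a is a chromatin protein whose chromodomain binds histone H3 methylated at lysine 9, the mark H3K9me3. It is best known for compacting the repeat-rich DNA beside centromeres. It is also known at some genes of the gene-rich arms, where it has been found without that mark. The 5 genes have different roles. The product of tara (taranis) resembles mammalian SERTAD proteins, interacts genetically with trithorax group genes and guards posterior identity in regenerating wing discs. The product of tna (tonalli) is a SUMO ligase-like protein that works with the Brahma chromatin remodelling complex. The gene chn (charlatan) encodes a zinc-finger protein that promotes proneural gene expression in sensory organ formation. The gene spen (split ends) encodes a large RNA-binding protein with a SPOC domain that acts in Notch, Wingless and EGF receptor signalling. The gene bowl encodes a zinc-finger protein of the odd-skipped family, which acts in leg joints and the hindgut.

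The tissue was the wing imaginal disc, an epithelial sac of the larva from which wing and notum develop. Its chromatin was mapped by CUT&RUN: a nuclease tethered to an antibody cuts DNA around the target, and the released fragments are sequenced. The series has 51 libraries, each from at least 20 discs of female larvae grown at 25 °C, in 18 groups. By their titles the larvae were HP1a-control, HP1a-chromo, HWT, K9R, yw, GFP-HP1a/GFP-HP1a, GFP-HP1a/+, CrGFP-HP1a or CrGFP-HP1chromo. The antibodies were against HP1a (16 libraries), H3K9me3 (15), GFP (14) and H3K27me3 (6). The values below come from 3 lists, with 1435 HP1 peaks, 2245 H3K9me3 peaks and 500 background regions from an anti-GFP profile. All HP1 peak names carry the source ywdf and the words HP1, sup and merge. Among the library titles, sup stands only in those of anti-GFP libraries and in none of the anti-HP1a ones. The names therefore do not settle which antibody gave the HP1 peaks. Names in the H3K9me3 list carry HWT for 2047 peaks and ywdf for 198. HWT stands for larvae without the endogenous histone gene cluster that carry a transgenic array of H3.2HWT, with twi-Gal4 and UAS-2xEYFP in the crossing scheme. What ywdf stands for is not given in the sources used here. The background list is named yw, and the genotype label of the libraries titled yw, GFP reads GFP-HP1a/+, so tagged HP1a in that list cannot be told apart from background. The lists hold no values of single libraries, so that depth and spread between replicates are unknown and genotypes could not be compared. They also hold no expression values, so the tissue label could not be checked against markers. Discs were pooled, and the peaks do not tell in which cells of a disc HP1 lay.

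Together the 5 genes held 19 HP1 peaks that covered 12751 bp, 4.19% of all bases under the 612 arm HP1 peaks. None of the 19 peaks touched an H3K9me3 peak. In all arms, 285 of 13631 protein-coding genes (2.09%, exact binomial 95% interval 1.86 to 2.35) held an HP1 peak and had no H3K9me3 peak within 50 kb. At least 2 HP1 peaks under the same condition were found in 44 genes (0.323%). Among the 1526 arm genes at least as long as bowl, the shortest of the 5, the shares were 9.76% for 1 or more peaks and 2.29% for 2 or more. Nothing follows for the 5 genes from these shares, since the genes were selected on them. A listed peak is an interval that can be part of a longer call. The 19 peaks come from 14 calls, and parts of 1 call carry the same fold enrichment, which is the authors' ratio of signal to the peak caller's expectation.

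The gene tara (gene ID 53562) spans 34679 bp at 3R 16225651 to 16260329 in the dm6 assembly. Its body carried 7 HP1 peaks from 4 calls, which together covered 5415 bp or 15.6% of the gene. They formed 4 clusters. The first, a peak of 450 bp at 6838 bp from the lower-coordinate end, had a fold enrichment of 4.98. The second was a call in 2 parts of 708 and 2115 bp, 232 bp apart, at 3R 16234196 to 16237250, with a fold of 15.9. This was the strongest call of the 5 genes and ranked 12 among the 522 HP1 calls of the arms. The third cluster had parts of 252 and 967 bp and a fold of 8.60, and the last had parts of 281 and 642 bp and a fold of 7.12. The last 2 clusters stood 10458 bp apart, the longest stretch between listed peaks of the gene. By the order of call numbers in the peak names, 3 numbers that are not listed fall in this stretch. From the first to the last peak the HP1 region took up 65.0% of the gene body.

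A further HP1 call lay outside tara, in 4 parts of 202 to 744 bp between 15.9 and 19.3 kb below its lower end. It had a fold of 12.5 and covered much of 4 short non-coding genes. HP1 covered 100% of lncRNA:CR45638, 93.7% of lncRNA:CR45639, 81.2% of lncRNA:CR45640 and 77.8% of lncRNA:CR45637. The bodies of CR45639 and CR45640 overlap each other, as do those of CR45638 and CR45637, so these peaks cannot be assigned to 1 gene of each pair. On the other side of tara the next listed HP1 peak was 801.5 kb away. Call numbers go from 6202 in tara to 6237 at that peak, and the numbers between are not listed.

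The gene tna (gene ID 39217), at 3L 10835528 to 10876496, is 40969 bp long and held 4 HP1 peaks from 2 calls. The peaks were 393, 534, 695 and 752 bp wide and covered 2374 bp, 5.80% of the body. The first pair had a fold enrichment of 7.67 and the second pair one of 11.6, which ranked 34 among the arm calls. All 4 lay in the middle of the gene, between 39.2% and 51.1% of its length, and filled a stretch of 5425 bp. In contrast to tara, whose peaks were spread over most of the body, tna had its 2 calls side by side, 1928 bp apart. The nearest peak end was 15868 bp from an end of the gene, farther than in the other 4 genes. The annotated bodies of lncRNA:CR45169 and CG6418 overlap that of tna, but no HP1 peak fell in the shared parts.

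The gene chn (gene ID 36678), at 2R 15115236 to 15144783, is 29548 bp long. It held 3 HP1 peaks from 3 calls, of 876, 663 and 557 bp, which covered 2096 bp or 7.09% of the body. Their folds were 5.32, 8.67 and 5.11, so that the middle peak was the highest. The first began 2521 bp from the lower-coordinate end, and 9188 bp without a listed peak separated it from the second. The third followed 2370 bp later, and the upper 13373 bp of the gene held no HP1 peak.

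The gene bowl (gene ID 33602), at 2L 3771700 to 3784121, is the shortest of the 5 with 12422 bp. Its 3 HP1 peaks, from 3 calls, measured 1090, 285 and 287 bp and covered 1662 bp. This was 13.4% of the body, close to the 15.6% of tara. The widest peak lay 1243 bp inside the lower-coordinate end and had a fold of 6.67. The others had folds of 4.38 and 4.57. The 3 peaks were spread over 67.1% of the gene, about as widely as those of tara.

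The gene spen (gene ID 44205), at 2L 159032 to 203397 near the tip of the arm, is the longest of the 5 with 44366 bp and held the least HP1. Its 2 peaks of 683 and 521 bp, from 2 calls, covered 1204 bp or 2.71% of the body. Their folds were 6.18 and 3.36, and the second was the weakest call of the 5 genes. Both lay near the lower-coordinate end, at 2259 and 7349 bp from it, and the remaining 36496 bp of the gene held no HP1 peak.

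None of the 19 peaks lay within 200 bp or within 500 bp of an annotated gene end. The distance to the nearer end ranged from 1243 bp in bowl to 19676 bp in tna, with a median of 8545 bp. For the other 280 arm genes with HP1 and no H3K9me3 within 50 kb, 96 of 337 peaks (28.5%) lay within 200 bp of an end or crossed it. Among those genes at least as long as bowl the figure was 22 of 192 (11.5%), with a median distance of 6368.5 bp. Distance to the gene ends belonged to the description by which the 5 genes were chosen. The gene table gives no strand and no exons, so the end where transcription starts, and whether a peak is exonic or intronic, were not determined. The number of RefSeq transcripts was 2 for tara, 4 for tna, 9 for chn, 8 for spen and 7 for bowl.

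**Figure D1:**
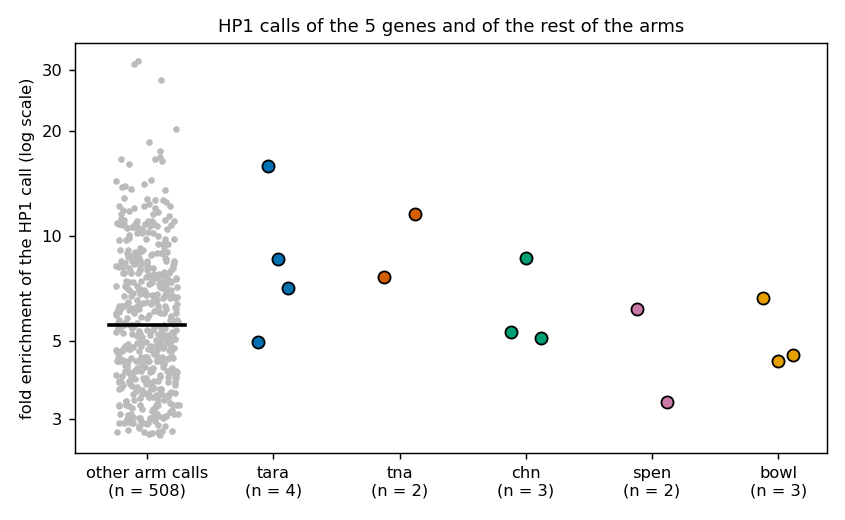
Fold enrichment on a log axis of each HP1 call in the 5 genes (coloured points) and of the other 508 calls of the arms (grey points, spread sideways for legibility, with their median of 5.56 as a line). Calls of tara and tna reach 15.9 and 11.6, whereas the calls of spen and bowl stay at 6.67 or below.

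The 14 calls of the 5 genes had fold enrichments from 3.36 to 15.9, with a median of 6.42. The 479 other arm calls with parts free of H3K9me3 had a median of 5.52 and reached 31.7, so that 8 of the 14 lay above their median. In width, the 19 peaks ranged from 252 to 2115 bp with a median of 642 bp, against a median of 342 bp for 551 other arm peaks that touched no H3K9me3. Of the 14 calls 5 (35.7%) were listed in more than 1 part, all of them in tara and tna, compared with 60 of the 479 others (12.5%). The recorded summit fell outside the interval for 16 of the 19 peaks, and for 1055 of 1435 (73.5%) in the whole HP1 list. Summit positions were therefore not used. Calls listed in 1 part were among them, such as the first peak of tara, 450 bp wide with a summit offset of 1485 bp. A listed width can thus be that of only part of a call.

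Numbers in the peak names rose along each chromosome at all 1014 steps from 1 HP1 call to the next, and so count calls in order. The whole HP1 list holds 1022 calls, whereas numbers in the arms reach 8449, so most numbers are not listed. For each of the 5 genes, numbers were counted only between its lowest and its highest listed one. These ranges hold 19 numbers, of which 14 are listed. In the range of tara 4 of 7 numbers are listed, in bowl 3 of 4, in spen 2 of 3, and in tna and chn all of them. Unlisted numbers outside the ranges, as between 30 in spen and 56, the next listed arm call, were not counted. Whether any of those lie in the genes is unknown. By that order 5 further call numbers fall between listed ones inside tara, bowl and spen. The HP1 list holds no values for them, and why they are missing is not given in the sources used here.

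The 5 genes also differed in how their HP1 cover compared with that of other arm genes. By bases under HP1, tara ranked 3, tna 10, chn 14, bowl 20 and spen 32 among the 13631 protein-coding arm genes. Per kb of gene body the ranks were 36 for tara, 44 for bowl, 83 for chn, 97 for tna and 178 for spen. By number of HP1 peaks tara ranked 2 and spen 24, and by strongest fold tara ranked 8 and spen 144. By number of HP1 calls, with ties, tara ranked 3, chn and bowl 7, and tna and spen 15. The 5 genes are long: by length, spen ranked 358, tna 410, tara 511, chn 632 and bowl 1526.

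Among the 285 genes with HP1 and no H3K9me3 peak within 50 kb, those most like the 5 by bases under HP1 were arr (3255 bp, 5 peaks), Bx (2338 bp, 4 peaks), shn (2286 bp, 7 peaks), CG1677 (2014 bp, 4 peaks), CG13563 (1831 bp, 2 peaks) and Ctps (1609 bp, 2 peaks). These 6 and tara, tna, chn and bowl make up the 10 most covered genes of that class. In it tara ranked 1, tna 3, chn 6, bowl 9 and spen 18. The product of arr is a Wingless co-receptor, Bx encodes a LIM-domain co-factor, shn a zinc-finger protein of Dpp signalling and Ctps an enzyme of CTP synthesis. The median of the other 280 genes was 320 bp under HP1 in 1 peak. At least 3 peaks were found in 12 of the 285 genes, 4 of which are tara, tna, chn and bowl. Parts of 1 call count as separate peaks here, and the 4 peaks of tna come from only 2 calls. Just above spen in the order stood Gug, the atrophin gene, with 1221 bp, and just below it aop, which encodes an ETS-type repressor, with 1183 bp.

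**Figure D2:**
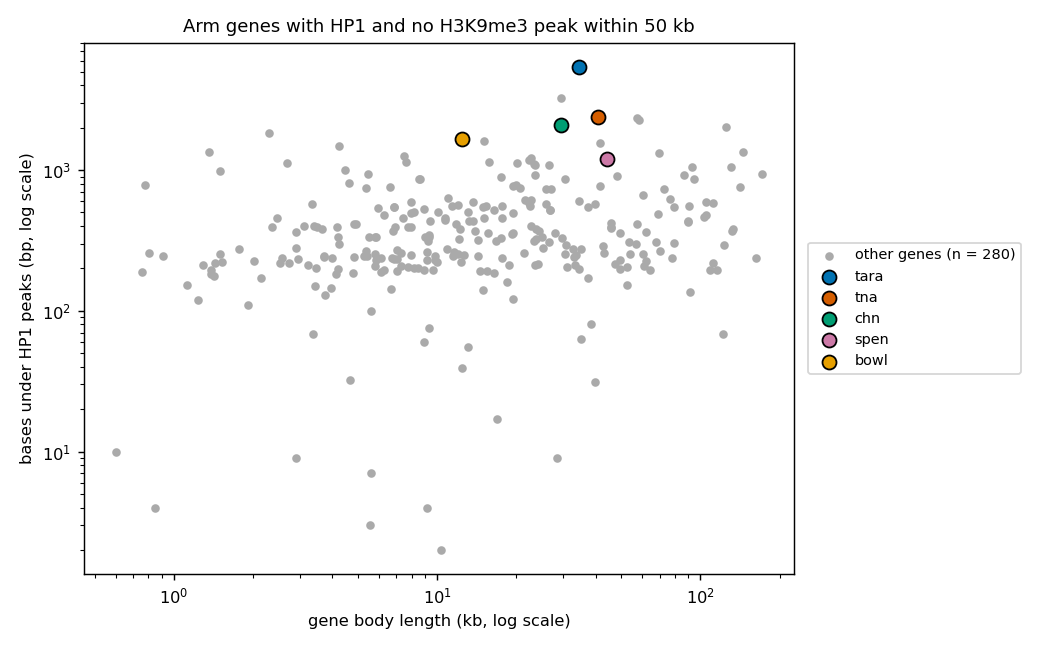
Bases under HP1 peaks against gene body length, both on log axes, for the arm genes with HP1 and no H3K9me3 peak within 50 kb: tara, tna, chn, spen and bowl in colour and 280 others in grey. The gene tara has the most covered bases of all with 5415 bp, and bowl, the shortest of the 5, has 1662 bp.

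The absence of listed H3K9me3 extended far beyond the 50 kb of the rule. No H3K9me3 peak lay within 1 Mb of any of the 5 genes. The nearest was 3.14 Mb away for chn, 4.09 Mb for tna, 5.35 Mb for tara, 6.45 Mb for bowl and 10.03 Mb for spen. For bowl and spen it was the same peak, of 799 bp and fold 5.56 at 2L 10230262 to 10231060. All of these nearest peaks were themselves in the arms and carried HWT names. The other 280 genes with HP1 and no H3K9me3 within 50 kb had a median distance of 1.13 Mb, and 143 of them (51.1%) were more than 1 Mb away. Over all protein-coding arm genes the median was 1.53 Mb. The 5 genes lay between 9.71 Mb (chn) and 21.8 Mb (spen) from the pericentric part of their arm. The HP1 list has a smallest −log10 q-value of 5.02 and the H3K9me3 list one of 1.38, and the names point to different sources. Lack of a listed H3K9me3 peak is therefore a statement on these lists and does not measure the mark in the discs that gave the HP1 peaks.

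**Figure D3:**
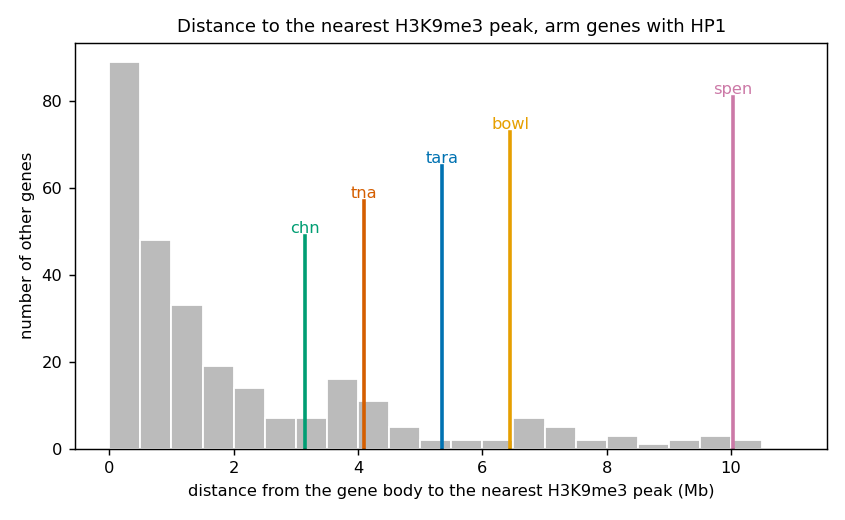
Distance in Mb from the gene body to the nearest H3K9me3 peak, as a histogram for the other 280 arm genes with HP1 and no H3K9me3 within 50 kb, with coloured lines for the 5 genes (the height of a line has no meaning). The 5 genes lie between 3.14 and 10.03 Mb, and the median of the others is 1.13 Mb.

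The genes differed in how far other listed HP1 peaks lay from them. Unlisted call numbers fall in such stretches, as between 2763 in chn and 2788, the next listed arm call. The distances therefore do not show that HP1 was absent between. The next HP1 peak outside bowl was 425.0 kb away on one side and 436.9 kb on the other. For chn these distances were 81.4 and 531.0 kb, for spen 85.7 and 224.0 kb, and for tna 74.3 and 27.5 kb. Within 500 kb outside the gene there were 17 HP1 peaks around tna, 6 around spen, 4 around tara, 3 around bowl and 2 around chn. Of 93 other annotated genes that overlap the 5 or lie within 50 kb of them, 4 (4.30%) held an HP1 peak, all of them the non-coding genes beside tara. These 4 lie under parts of the same call and are not separate cases. Over all arm genes of any kind the share was 2.33%.

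Background regions, which the choice of genes did not use, fell at tna and bowl. In tna a region of 213 bp with a fold of 2.45 lay at 3L 10855765 to 10855977, in the gap of 407 bp between the parts of the strongest call, 103 and 91 bp from them. Over the whole HP1 list, 10 of 413 such gaps within a call held a background region. In bowl a region of 231 bp with a fold of 3.05 shared 6 bp with the second HP1 peak, 2.11% of that peak. Another of 410 bp covered the lower-coordinate end, 1089 bp from the first HP1 peak. Thus 1 of the 19 peaks touched a background region, against 15 of 612 arm HP1 peaks (2.45%). The genes tara, chn and spen had no background region within 50 kb, and their nearest lay 769.5, 831.0 and 153.1 kb away. Whether the regions at tna and bowl bear on their HP1 peaks was not tested.

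Relatives and partners of the 5 genes were followed in 5 lists by known role, with 52 genes, all of them protein-coding arm genes. HP1 peaks fell in 9 of the 52 (17.3%), compared with 338 of all 13631 protein-coding arm genes (2.48%). The lists were not matched for gene length, so these shares are not like for like. HP1 with no H3K9me3 within 50 kb was found in 8 of the 52. That share was 2.09% over arm genes and 9.76% among those at least as long as bowl. The median was 0 bp under HP1 in each list as over all protein-coding genes. H3K9me3 peaks fell in none of the 52, and in 0.249% of protein-coding arm genes. Of all 338 protein-coding arm genes with HP1, 285 had no H3K9me3 peak within 50 kb. In the list of trithorax group and Brahma complex genes, which are tied to tara and tna, 6 of 20 held HP1 and none of these 6 had H3K9me3 within 50 kb. They were fs(1)h, a BET bromodomain gene, with 922 bp, osa, a Brahma complex subunit gene, with 865 bp and a fold of 10.8, skd, a Mediator kinase module gene, with 606 bp, Trl, the GAGA factor gene, with 507 bp, e(y)3 with 417 bp and trx, a histone methyltransferase gene, with 213 bp. Of these, osa, skd and fs(1)h had 2 peaks each. Each of the 6 held fewer covered bases than spen. In this list ash1, Bap111 and Utx had an H3K9me3 peak within 50 kb and no HP1. The share of all arm genes with an H3K9me3 peak within 50 kb is not given here, so these cases have no comparison.

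In the list of spen-type genes and Notch co-repressors 3 of 8 held HP1. The co-repressor gene Smr had 3 peaks over 1730 bp with folds up to 7.12, and unlike the 5 genes it had 2 H3K9me3 peaks within 50 kb. The genes gro, which encodes Groucho, and Sin3A, a histone deacetylase complex gene, had 1 peak each, of 507 and 456 bp. No HP1 peak fell in nito, the other spen-type gene. None of 10 SUMO pathway genes, 10 proneural and sensory organ genes or 4 genes of the odd-skipped family with lin held HP1. Of these, da had 2 H3K9me3 peaks within 50 kb. The relatives of bowl, odd, sob and drm, lie 164.9, 190.9 and 223.3 kb from it on 2L and held no HP1 peak, while bowl held 3. Lists of this size, where 2.48% of arm genes hold HP1, could not show a lack.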

How the data were processed

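Peak lists of the whole series were used as deposited. The build was dm6, and MACS2 2.1.2, bedtools 2.26, SAMtools 1.10 and Bowtie2 2.3.4.1 were among the tools, as listed in the submitters' processing notes. How calls were combined or split into intervals is not given in the sources used here. The fold enrichment (a ratio) and the −log10 q-value of each peak are the authors' values, as deposited, and the summit position is given in the deposited lists as an offset from the start of a call.

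Gene starts and ends came from a RefSeq table (Release 6 plus ISO1 MT, the assembly of dm6). Genome and promoter sequence were not used here. A peak belongs to a gene if they share at least 1 bp. Distances are bases between gene body and peak. Arms are 2L, 2R, 3L, 3R and X without the centromere-proximal 1.5, 5.4, 5.1, 4.6 and 0.9 Mb, by the middle of a gene or peak. Shares carry exact Clopper-Pearson 95% intervals, which cover counting error only. Calculations used Python 3.11.15, pandas 2.3.3 and SciPy 1.17.1. The overlap code was tested on simulated data.

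The 5 genes, the lists of related genes and the alternatives were chosen with earlier results of these data known. Named were the 5 genes, genes within 50 kb of them or overlapping them with an HP1 peak, the 10 arm genes with most HP1 bases and no H3K9me3 within 50 kb, and list members with a peak or, chosen after their values were seen, with H3K9me3 nearby. The genes that overlap tna, those next to spen in order, and nito, odd, sob and drm were also named outside that rule. No test was planned or run.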

Additional observations from a re-analysis of the deposited data

How the results depend on the processing

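Of 111 values recomputed under alternative choices, 102 stayed within 1.5 times the reported count or rank or, for a share, within its interval. The other 9 moved. A −log10 q-value of at least 10, at least 50% of the peak in the gene and 1 kb added at the gene ends left the 19 peaks and 12751 bp of the 5 genes as they were. These settings could not change the values. The lowest −log10 q-value of the 19 peaks was 13.06, all lay wholly inside the bodies, and no other HP1 peak lay within 1 kb. The unchanged values are counted in the 102 but say nothing on stability. Without peaks that touch a background region, 18 peaks and 12466 bp remained, with 2 peaks and 1377 bp in bowl. With the intervals of 1 call joined, an alternative chosen after seeing the data, the 5 genes held 14 intervals over 15702 bp, 4 of them in tara and 2 in tna. The 102 also include 4 counts of H3K9me3 peaks near the genes (windows of 10 and 100 kb, HWT or ywdf names alone), all 0. The choice of genes or the distances already reported fixed these counts, which say nothing on stability. The background share of 2.09% was 1.83% with at least 50% of the peak in the gene and 1.80% with the stricter q-value. Per kb of gene body the ranks were 36 for tara, 97 for tna, 83 for chn, 178 for spen and 44 for bowl. By bases under HP1 they were 3, 10, 14, 32 and 20 in the same order, so all 5 ranks moved.

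No paired analysis was possible because single replicates have no values in these lists, and leaving out a replicate was equally impossible. Library depth is unknown, so the weakest enrichment that the lists can hold is unknown too.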
